A study of Drosophila melanogaster with 3 samples.

Results

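The genes described here are the 32 small nuclear RNA (snRNA) genes that the Ensembl gene models place on the main chromosome arms of Drosophila melanogaster, out of 18164 genes in all. They were taken by their annotated biotype, a rule that uses no measured value, and lie on 2L (16 genes), 3R (10), 3L (4) and X (2). Chromatin immunoprecipitation followed by sequencing (ChIP-seq) had been used to map the sites of CG5245, a protein with C2H2 zinc fingers, in whole embryos of mixed sex aged 0 to 16 h. The flies were of 1 transgenic strain, CG5245-GFP, in which CG5245 carries a C-terminal green fluorescent protein, and an antibody against that tag was used. All samples are of this 1 group, with 3 biological replicates, so the data hold no contrast between genotypes, treatments or times. The labels' antibody field names CG5245 itself, while their description names the tag. The promoter that drives the transgene is not given in the labels, and the control library was not analysed here. Whole embryos mix all tissues, so a site can come from any of them.

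The snRNAs are short nuclear RNAs that work as parts of RNA-protein particles. U1, U2, U4, U5 and U6 are the RNAs of the major spliceosome, which removes most introns. U11, U12, U4atac and U6atac serve the minor spliceosome, U7 guides the processing of histone messages, and 7SK holds the elongation factor P-TEFb inactive. Most snRNA genes are transcribed by RNA polymerase II, whereas U6, U6atac and 7SK are transcribed by RNA polymerase III. In flies both kinds depend on a proximal sequence element upstream of the gene, which is bound by the factor known in mammals as SNAPc, and the polymerase III genes also carry a TATA box.

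The upstream sequences of 10 of these genes are printed to show this element and how alike copies with and without a listed site are. Each runs 5′ to 3′ on the gene strand from 80 bases before the gene to its first 20 bases, read from the Release 6 reference, the assembly also called dm6. Capitals mark matches to ATTCNCAA, used here as the core of the proximal sequence element. The first, at chr3R:23859611-23859710, minus strand, belongs to a U1 gene with a reproducible CG5245 site, and the second, at chr3R:23827790-23827889, plus strand, to an identical U1 gene with no region in any list.
U1:95Ca: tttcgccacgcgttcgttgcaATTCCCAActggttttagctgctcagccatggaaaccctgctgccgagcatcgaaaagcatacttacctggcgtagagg
U1:95Cb: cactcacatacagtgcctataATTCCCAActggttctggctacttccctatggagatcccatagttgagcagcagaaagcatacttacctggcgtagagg

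A pair of U2 genes of identical transcribed sequence also differed in the lists. The first, at chr2L:13215759-13215858, plus strand, had a reproducible site, and the second, at chr2L:13244542-13244641, minus strand, had no region in any list. Neither this pair nor the U1 pair can be read as a contrast in binding. Within 500 bp of the start of U2:34ABc only 48.1% of words of 36 bases occur once in the reference. Absence of a site there cannot be told apart from reads that could not be placed. Within 50 bp of the U1:95Ca summit 0% of such words occur once, so that signal may come from another U1 copy. The bound U4 gene lies at chr2L:21215159-21215258, minus strand.
U2:34ABb: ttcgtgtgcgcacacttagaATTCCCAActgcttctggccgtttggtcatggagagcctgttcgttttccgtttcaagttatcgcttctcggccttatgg
U2:34ABc: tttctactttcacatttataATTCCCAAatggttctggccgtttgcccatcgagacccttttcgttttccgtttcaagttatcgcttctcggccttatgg
U4:39B: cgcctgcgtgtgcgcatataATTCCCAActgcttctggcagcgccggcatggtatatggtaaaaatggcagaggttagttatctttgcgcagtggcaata

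The next 5 are annotated as U6 or 7SK, which are polymerase III classes. The 3 U6 genes stand in a row, at chr3R:24556008-24556107, plus strand, at chr3R:24556612-24556711, plus strand and at chr3R:24557135-24557234, plus strand. The bound 7SK gene lies at chr3R:7474977-7475076, minus strand. The second gene annotated as 7SK, at chr3R:23432789-23432888, plus strand, is the only one of the 32 without the core.
U6:96Aa: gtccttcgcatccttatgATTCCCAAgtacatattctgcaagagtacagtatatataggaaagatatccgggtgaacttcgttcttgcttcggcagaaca
U6:96Ab: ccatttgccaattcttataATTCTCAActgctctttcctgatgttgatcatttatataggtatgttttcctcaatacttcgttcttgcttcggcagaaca
U6:96Ac: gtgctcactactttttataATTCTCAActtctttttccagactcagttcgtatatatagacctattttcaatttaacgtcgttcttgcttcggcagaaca
7SKa: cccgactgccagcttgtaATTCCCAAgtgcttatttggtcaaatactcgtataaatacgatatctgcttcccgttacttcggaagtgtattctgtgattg
7SKb: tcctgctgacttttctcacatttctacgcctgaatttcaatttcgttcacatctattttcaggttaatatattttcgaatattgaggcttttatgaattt

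The core stood on the gene strand upstream of 31 of the 32 genes, starting 56 to 65 bases before the gene (median 59). It read ATTCCCAA in 26 genes and ATTCTCAA in 5, among them U6:96Ab and U6:96Ac. In windows from 250 bases before to 50 after the gene start, searched on both strands, 31 of 32 snRNA genes (96.9%) held the core, against 6.14% of all genes. All 6 snRNA genes with a reproducible site had it, and so did 25 of the 26 without one. Because 31 of the 32 hold the core, its presence could not separate members with a reproducible site from those without one. Of 3 other motifs searched in the same windows and on both strands, the TATA box TATAAA was found at 15 of 32 members (46.9%) and 43.9% of all genes. The motif of the insulator protein BEAF-32, CGATA, was found at 18 of 32 (56.2%) and 44.3% of all genes. All 6 U2 genes matched it at the same place, across the gene start. All 3 U6 genes matched it at base 37 of the gene. These copies of 1 sequence are not independent matches, so no excess is read from the count of 18. The core of the DNA replication-related element, TATCGAT, was found at 1 of 32 (3.12%) and 15.1% of all genes, and this word overlaps the BEAF-32 motif. The word TATATA, searched after the sequences were seen, was found at 9 of 32 (28.1%) and 22.9% of all genes, and at all 3 U6 genes it started 28 to 31 bases before the gene. A match describes the letters in the window and is not a measured binding site.

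Peak lists were deposited for the pool of the 3 replicates, for each replicate and for a reproducible set chosen by the authors with the irreproducible discovery rate, which compares how regions rank across replicates. The reproducible set held 3670 peaks, which were the 3670 strongest of 30000 pooled candidates. Replicates 1 and 2 had 30000 candidates each and replicate 3 had 29608, so ranks refer to lists of nearly equal length. The signal value of a region is the authors' own score and is used only within a list. No list holds read counts, so the sequencing depth is unknown. A gene counts as occupied if the summit of a region fell no more than 500 bp from one of its transcript starts, and top regions are the 3670 strongest of a replicate.

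CG5245 occupied 6 of the 32 snRNA genes (18.8%) in the reproducible set, through 5 peaks, against 13.2% of all 18164 genes. Among genes with a single transcription start site (TSS), which all snRNA genes are, 9.87% were occupied, and among protein-coding genes 15.8%. In the top regions of the replicates 6, 5 and 6 snRNA genes were occupied, against 13.9%, 12.8% and 12.6% of all genes in replicates 1, 2 and 3. This is 17.7% ± 1.80 of the snRNA genes (SD, n = 3), against 13.1% ± 0.648 of all genes (SD, n = 3). The snRNA share was thus above that of all genes in each replicate, and above the 10.3%, 9.62% and 9.41% of genes with a single TSS, but it rests on 5 or 6 genes of which a pair share 1 peak. Nor are they the same genes throughout. The top regions of replicate 2 held U1:21D, which is not in the reproducible set, and lacked U2:34ABb and 7SKa. The snoRNA genes (4.71% ± 0.568, SD, n = 3) and tRNA genes (4.37% ± 1.31, SD, n = 3) had lower shares in the top regions. Protein-coding genes had 15.7% ± 0.728 (SD, n = 3), and in replicate 2 they had 15.4% against 15.6% of the members. Over the pooled candidates of any rank 18 of 32 snRNA genes (56.2%) had a summit, against 46.3% of all genes and 39.1% of genes with a single TSS. The candidates of replicates 1, 2 and 3 gave 15, 17 and 16 members (46.9%, 53.1% and 50%), against 47.9%, 45.6% and 41.8% of all genes. In replicate 1 the share of members was thus below that of all genes. The mean share was 50% ± 3.12 of members (SD, n = 3) and 45.1% ± 3.09 of all genes (SD, n = 3). It was 49.7% ± 3.72 of protein-coding, 48.4% ± 7.76 of tRNA and 26.5% ± 3.00 of snoRNA genes (SD, n = 3). In replicate 1 the tRNA share, 57.2%, was above that of the members. Genes with a single TSS had shares of 40.6%, 38.6% and 35.1% in the candidates of replicates 1, 2 and 3. The best pooled rank of the 18 members had a median of 7644, against 7483 over the 8412 genes of any kind with a pooled candidate. The differences from other genes were not tested, because the members form 1 small list and share near-identical sequences.

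The U6 genes carried the strongest site of the 32 in the pool and in replicates 1 and 3, and in replicate 2 U4:39B ranked above them. U6 forms the catalytic core of the spliceosome, and its 3 copies, whose transcribed sequences are identical, lie in a row on 3R, with starts 604 and 523 bp apart. A single peak with its summit at 24557102 served both U6:96Ab (FBgn0004189) and U6:96Ac (FBgn0004190). The summit lay 410 bp downstream of the start of U6:96Ab and 113 bp upstream of the start of U6:96Ac, in the spacer between them. The pooled signal was 294, at rank 476, above 87.0% of the reproducible set. It ranked 231 in replicate 1 (signal 159), 1402 in replicate 2 (57.5) and 576 in replicate 3 (75), among the top regions each time. The summit positions in the replicates lay within 3 bp of the pooled one. U6:96Aa (FBgn0004188), the first copy, had a weak candidate only. It ranked 14071 in the pool, 21362 in replicate 2 and 14894 in replicate 3, and had none in replicate 1. The first copy thus had a far lower rank or no candidate, whereas its neighbours share 1 peak in the spacer. No difference in binding between the copies is read from this. Their transcribed sequences are identical, and how repeated reads were placed is unknown. The nearest protein-coding TSS to the strong summit, that of Esyt2, lay 8085 bp away, and the nearest TSS of any other gene, a tRNA gene for aspartate, 1800 bp away.

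U4 had the second strongest site in the pool. U4 keeps U6 inactive by base pairing until the spliceosome is activated. At U4:39B (FBgn0003930), in an intron of Atg18b on the same strand, the summit lay 47 bp inside the gene, with a signal of 173 at pooled rank 1407. It ranked 2116 in replicate 1 (signal 57.0), 1238 in replicate 2 (62.0) and 1531 in replicate 3 (45.6), among the top regions each time. U4:38AB had candidates at rank 17438 in the pool, 12897 in replicate 1 and 8943 in replicate 2, and none in replicate 3. U4:25F had 2 candidates, in replicate 3 only, at rank 10675 (-447 bp from its start) and rank 23677 (-239 bp). The U4 genes were therefore far apart in rank. U4:39B and U4:38AB are 94.4% identical, counting single-base changes, insertions and deletions against the length of the longer gene.

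U1 pairs with the 5′ splice site, and 1 of its 5 genes was occupied. The summit at U1:95Ca (FBgn0004185) lay 60 bp inside the gene, with a signal of 150 at pooled rank 1791. It ranked 1894 in replicate 1 (signal 60.6), 2436 in replicate 2 (40.6) and 1536 in replicate 3 (45.6), all among the top regions, and the nearest protein-coding TSS lay 30482 bp from the summit. U1:21D was just outside the reproducible set. Its best candidate ranked 3848 in the pool with a −log10 q of 3.41. It ranked 6541 in replicate 1, 3398 in replicate 2 and 6680 in replicate 3, so only replicate 2 placed it among its top regions. U1:82Eb followed at 7407 in the pool, 6141, 5426 and 12099 in the replicates. The 2 copies in an intron of CG34355, U1:95Cb and U1:95Cc, had no region in any list. U1:95Ca, U1:21D and U1:95Cb have the same transcribed sequence, so identical genes ranked within the reproducible set, just below it and in no list. The sequence within 50 bp of the U1:95Ca summit is repeated elsewhere in the reference, so which copy gave that signal is uncertain. No difference in binding between these copies is therefore read from their ranks.

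U2 pairs with the branch point, and 1 of its 6 genes was occupied. At U2:34ABb (FBgn0004192) the summit lay 189 bp downstream of the start, within the last bases of the gene, with a signal of 128 at pooled rank 2301. It ranked 2749 in replicate 1 (signal 48.3), 4318 in replicate 2 (27.5) and 1300 in replicate 3 (49.7). Replicate 2 therefore placed it outside its top regions. The TSS of kek4, the nearest protein-coding one, lay 678 bp from the summit. U2:34ABa, 3723 bp away, had a candidate at rank 19349 in the pool, 16226 in replicate 1 and 12041 in replicate 2. U2:34ABc, U2:38ABa, U2:38ABb and U2:14B had no region in any list.

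Of the 2 genes annotated as 7SK, 7SKa (FBgn0065099) was occupied. Its summit lay 274 bp inside the gene of 444 bp, with a signal of 130 at pooled rank 2246. It ranked 1371 in replicate 1 (signal 72.2), 4354 in replicate 2 (27.3) and 2861 in replicate 3 (31.6), so replicate 2 again placed it outside its top regions. The nearest protein-coding TSS, that of CG1142, lay 941 bp from the summit. 7SKb had no region in any list, and its nearest pooled summit was 4648 bp away. Its identity to 7SKa was 46.8% by the measure used for U4, in which a difference in length also lowers the value. The 4 minor spliceosome genes, which encode different RNAs, are 30.2% to 49.8% identical by the same measure, so no likeness is read from this value.

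None of the 7 U5 genes, whose RNA aligns the exons, was occupied in the reproducible set. U5:35D had the best pooled rank, 6685, with 10636, 7156 and 6225 in the replicates, but the summits lay 480 to 490 bp from the gene start, downstream in the pool and in replicates 1 and 3 and upstream in replicate 2. Mtr4, which encodes an RNA helicase of the exosome, has its TSS 581 bp from that start. U5:63BC ranked 8097 in the pool, 26828 in replicate 1, 3674 in replicate 2 and 18766 in replicate 3. In replicate 2 it thus missed the top regions by 4 ranks, whereas the other replicates placed it low. U5:38ABa had a pooled rank of 17972 and a candidate in replicate 3 only, and U5:23D, U5:34A, U5:38ABb and U5:14B had no region in any list.

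The 4 minor spliceosome genes were not occupied, and no candidate of theirs was repeated in a second replicate. Each had a candidate in exactly 1 replicate, namely U6atac (rank 21496) and U12 (13881) in replicate 2, U11 (22626) in replicate 1 and U4atac (29037) in replicate 3. In the pool U12 ranked 18646 and U11 25948, the lowest rank of any member with a pooled candidate. U7 and snRNA:LU had candidates in all 3 replicates below the top regions. U7 ranked 7881 in the pool and 12997, 20920 and 4125 in the replicates, and LU ranked 9304 in the pool and 14315, 19318 and 4102. Replicate 3 thus ranked both of them highest.

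**Figure D1:**
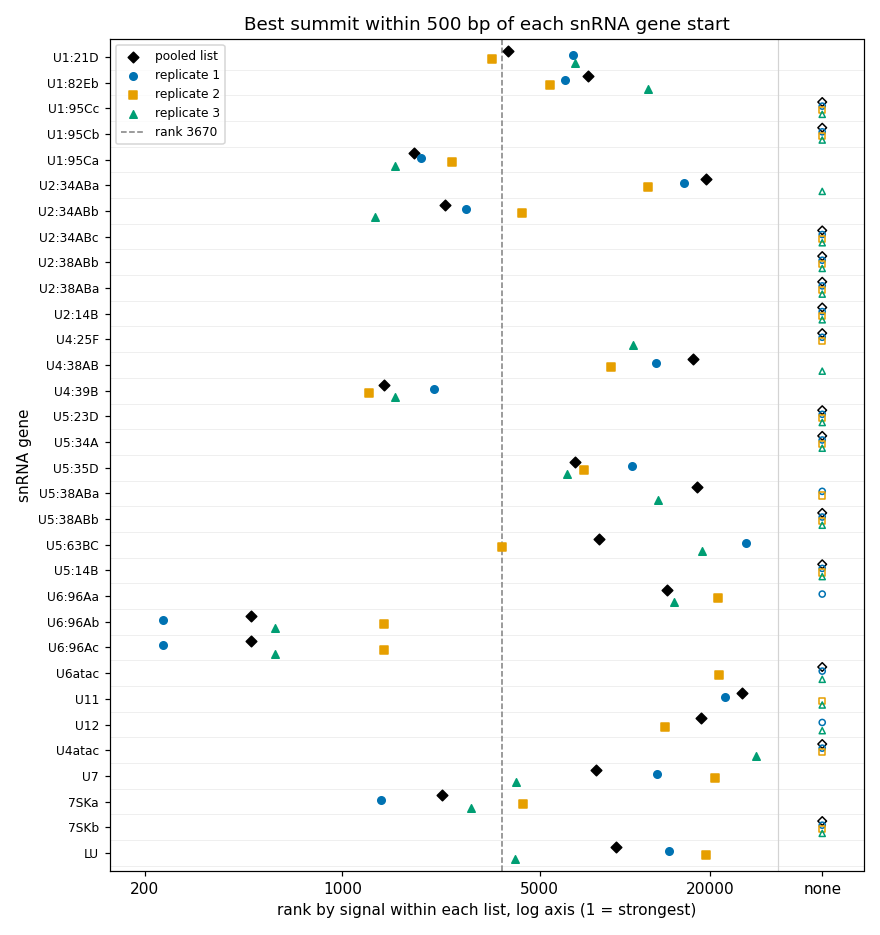
Rank by signal of the best summit within 500 bp of each of the 32 snRNA gene starts, in the pooled list and in the 3 replicates, on a log axis; open symbols at the right mean no summit, and the dashed line marks rank 3670. The U6:96Ab and U6:96Ac points, which are 1 shared peak, have the leftmost points in the pool (476) and in replicates 1 (231) and 3 (576), while in replicate 2 U4:39B (1238) lies to the left of them (1402), and 11 genes have open symbols in all 4 lists.

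Over the 3 replicates 12 members had a candidate in each, 3 in exactly 2, 6 in exactly 1 and 11 in none. The 11 were absent from the pooled list too. They comprise U1:95Cb, U1:95Cc, 4 U2 genes, 4 U5 genes and 7SKb. Several sit side by side. U2:34ABc and U5:34A start 287 bp apart and U2:14B and U5:14B 555 bp apart, and neither pair had a region. A cluster of 5 genes of the U2, U4 and U5 classes lies in an intron of sick on 2L, and 2 of them, U4:38AB and U5:38ABa, had low-ranked pooled candidates. The nearest reproducible summit to this cluster lay 893 bp from U5:38ABb. With a limit of 500 bp the members just inside were U6:96Ab at 410 bp in the reproducible set and U5:35D at 490 bp in the pool. Just outside were U5:38ABb at 893 bp in the reproducible set and U4atac at 640 bp in the pool. The median distance from a member to the nearest reproducible summit was 5814 bp, against 3952 bp for snoRNA, 14886 bp for tRNA and 9622 bp for protein-coding genes.

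Most summits lay downstream of the snRNA gene start. In the pooled list the best summit was downstream of the start at 15 of 18 members (83.3%), with a median of 136.5 bp, and inside the gene at 9. At U5:38ABa, U6:96Ab and U5:35D it lay 386, 410 and 490 bp from the start, well past the end of the gene. Protein-coding genes measured in the same way, from the annotated gene start, had it downstream at 1886 of 6732 genes, with a median of -83 bp. The tRNA genes had it downstream at 46.7% of 150 and the snoRNA genes at 32.3% of 65. In the reproducible set 5 of the 6 occupied members had it downstream, and 15.8% of 1947 protein-coding genes did. Most were downstream in each replicate too, with 13 of 15, 15 of 17 and 11 of 16 members downstream and medians of 153, 129 and 100 bp. Single members moved more than these medians, as at U1:82Eb, where the summit lay at 3, 234 and -132 bp in replicates 1, 2 and 3. The difference from other gene classes was not tested. The exceptions in the pool were U6:96Ac, U11 and LU, whose pooled summits lay 113, 252 and 33 bp upstream. The summit near U6:96Ac is the one that lies downstream of U6:96Ab.

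**Figure D2:**
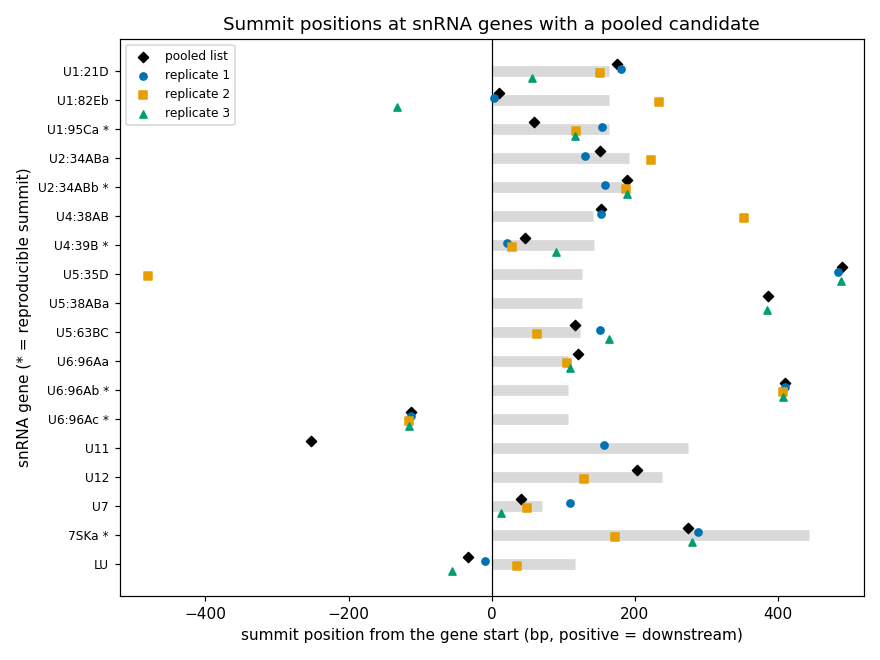
Position of the best summit relative to the gene start, in bp on the gene strand, for the 18 snRNA genes with a pooled candidate, in the pooled list and the 3 replicates; grey bars show the annotated gene and stars mark genes with a reproducible summit. Pooled summits lie downstream of the start at 15 of the 18 genes and inside the grey bar at 9.

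**Figure D3:**
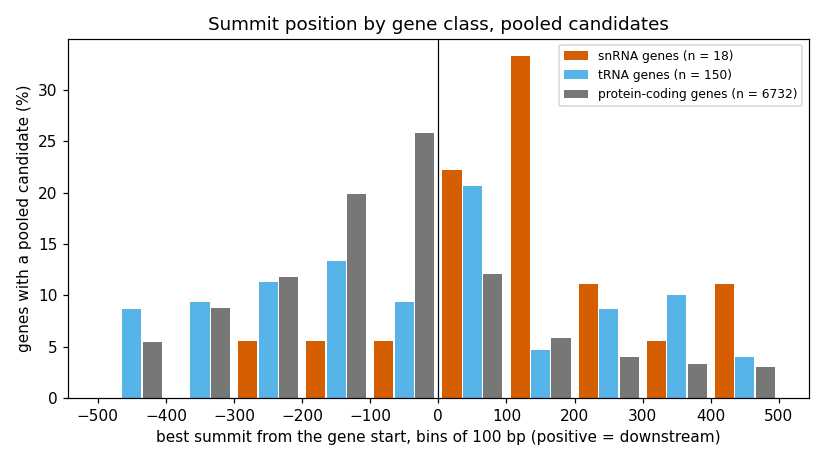
Share of genes with a pooled candidate whose best summit falls in each 100 bp bin from the gene start, for snRNA (n = 18), tRNA (n = 150) and protein-coding genes (n = 6732). The tallest snRNA bar, 33.3%, is 100 to 200 bp downstream, and the tallest protein-coding bar, 25.9%, is in the 100 bp upstream.

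None of the 5 peaks lay within 500 bp of a protein-coding TSS. Of the 3670 reproducible peaks, 1799 lay within 500 bp of any TSS, and 1697 of these had a protein-coding one, so 102 (2.78%) were near non-coding starts alone. The 5 snRNA peaks belong to these 102. Of the 32 members, 3 start within 500 bp of a protein-coding TSS, namely U2:34ABa, U2:34ABb and U6atac, and 18 start inside another gene.

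The DNA at the 5 summits is printed because 4 of the summits fall in the snRNA sequence itself. Each sequence is the summit base with 50 bases on either side, on the strand of the snRNA gene, and capitals mark the annotated snRNA gene. The U6 window is wholly in lower case because its summit lies between genes. They lie at chr3R:23859520-23859620, minus strand, at chr2L:13215978-13216078, plus strand, at chr2L:21215081-21215181, minus strand, at chr3R:24557052-24557152, plus strand and at chr3R:7474672-7474772, minus strand.
U1:95Ca: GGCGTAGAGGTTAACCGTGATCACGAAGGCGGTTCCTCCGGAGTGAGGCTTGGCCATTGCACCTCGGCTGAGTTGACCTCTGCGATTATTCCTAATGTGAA
U2:34ABb: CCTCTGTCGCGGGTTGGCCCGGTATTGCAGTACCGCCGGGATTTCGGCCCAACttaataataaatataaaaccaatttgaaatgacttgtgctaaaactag
U4:39B: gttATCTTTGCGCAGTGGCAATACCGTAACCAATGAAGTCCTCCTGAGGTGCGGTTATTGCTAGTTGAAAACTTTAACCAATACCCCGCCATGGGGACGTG
U6:96Ab and U6:96Ac spacer: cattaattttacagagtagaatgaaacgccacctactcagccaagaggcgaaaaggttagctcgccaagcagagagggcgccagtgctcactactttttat
7SKa: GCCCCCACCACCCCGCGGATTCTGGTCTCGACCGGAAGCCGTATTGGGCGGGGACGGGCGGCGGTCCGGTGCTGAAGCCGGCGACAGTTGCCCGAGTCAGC

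These summits were poorer in A and T than most CG5245 sites, but 4 of the 5 windows hold snRNA gene sequence. The composition of snRNA genes without a site was not measured. A trait of the sites cannot therefore be told apart from one of the gene class. The median over the 3670 reproducible peaks was 65.3% A or T, with quartiles of 58.4% and 71.3%. The U1:95Ca summit had 45.5%, U4:39B 51.5%, the U6 spacer 53.5% and U2:34ABb 55.4%. All 5 were below the lower quartile of the set, and 3021 of the 3670 peaks were above every one of them. The 7SKa summit had 27.7%, and no other reproducible peak had an equal or lower value. None of the 5 windows held the core of the proximal sequence element, the BEAF-32 motif, the replication-related element or TATATA on either strand, and the TATA box word was present in the U2:34ABb window alone. The core of the proximal sequence element thus lay outside the 50 bp on each side of each summit, at U6:96Ac just past the end of the window. The called regions are wider. Those at U1:95Ca, U4:39B and U6:96Ac cover the core of the gene, and those at U2:34ABb and 7SKa do not.

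**Figure D4:**
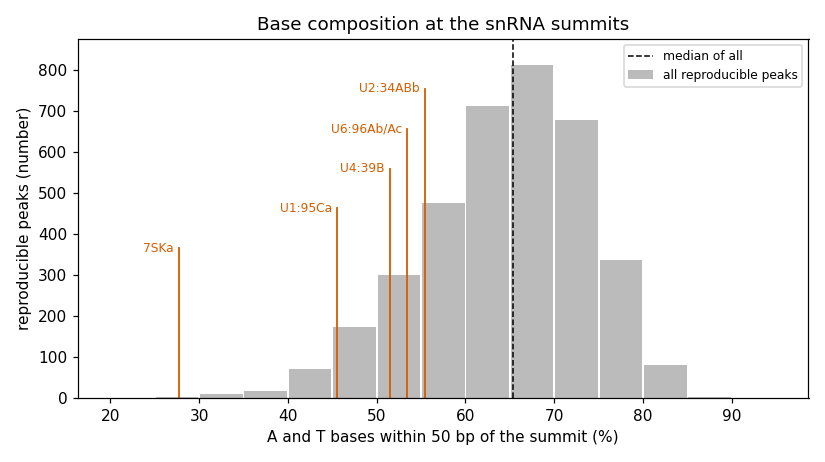
Share of A and T bases within 50 bp of the summit for the 3670 reproducible peaks (grey, number of peaks per 5% bin), with the 5 snRNA peaks as orange lines of arbitrary height and the median of all peaks dashed. All 5 lines lie to the left of the median of 65.3%, and 7SKa, at 27.7%, lies furthest left.

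Because snRNA genes exist in near-identical copies, a short read from one may not be assigned to a single place. The labels give neither the read length nor how such reads were treated. As a measure of the limit, the share of words of 36 bases that occur once in the reference, on either strand, was counted within 500 bp of each gene start. The median was 93.2% for the 32 members, 93.3% for tRNA genes and 100% for snoRNA and for protein-coding genes, and 13 members were under 90%. The lowest 3 were U2:38ABa (46.2%), U2:34ABc (48.1%) and U2:38ABb (49.7%), and none of these had a region in any list. Absence of a site cannot be told apart there from reads that could not be placed. Of the members without a pooled candidate, 4 lay in wholly unique sequence, namely U4:25F, U6atac, U4atac and 7SKb. Members with a reproducible site ranged from 81.6% to 100%, with a median of 89.0%, and those without a pooled candidate from 46.2% to 100%, with a median of 90.4%.

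At the summits themselves the repeats weighed more on some peaks. Within 50 bp of the U1:95Ca summit none of the words was unique (0%), at U2:34ABb 71.2% were and at U4:39B 81.8%. At the U6 spacer and at 7SKa all words were unique (100%). Of the 3670 reproducible peaks only 12 (0.327%) had any repeated word in this window, and 3 of those 12 were these snRNA peaks. Only 2 had under 50% unique words, U1:95Ca among them. The signal at U1:95Ca is therefore uncertain as to which U1 copy it came from, and the U2:34ABb and U4:39B windows are partly repeated. These shares cover only the 50 bp on each side of the pooled summit. In replicates 2 and 3 the called U6 region reached into U6:96Ac, whose transcribed sequence is repeated. The part of repeated sequence in the ranks was not tested.

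**Figure D5:**
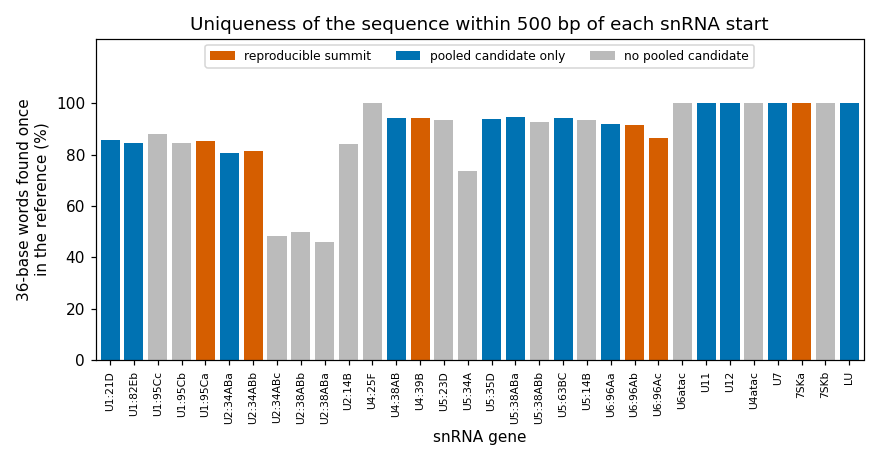
Share of 36-base words within 500 bp of each snRNA gene start that occur once in the reference, in percent, with genes coloured by whether they had a reproducible summit, a pooled candidate only, or none. The 3 bars under 60% are U2 genes with no pooled candidate, and 9 genes reach 100%.

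Protein genes that make snRNAs or work with them were also examined, from lists of 84 entries in 6 groups, of which 72 matched a distinct protein-coding gene. Of the 72, 16 (22.2%) were occupied in the reproducible set, against 15.8% of protein-coding genes, and 53 (73.6%) had a pooled candidate, against 51.2%. The highest signals were at transcription factor genes. Among 10 genes for snRNA transcription factors 2 were occupied (20%), both encoding subunits of TFIIIB, which recruits RNA polymerase III. In the same list Tbp had a pooled candidate at rank 7049, outside the reproducible set, and Trf had no pooled candidate. No pattern for the whole factor is therefore read from these 2 genes, Bdp1 and Brf. Bdp1 had a signal of 491 at rank 137, 95 bp upstream of its TSS, and ranked 134, 135 and 134 in the replicates. Brf had a signal of 419 at rank 199, 135 bp upstream, and ranked 198, 253 and 143. Both sites were therefore strong in every replicate, although they lay nearer to the TSSs of the neighbours CG6565 and sds22.

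The Integrator complex, which cuts the 3′ ends of snRNAs made by RNA polymerase II, had 5 of 14 genes occupied (35.7%), against 15.8% of protein-coding genes. The highest signals were at IntS9 (216), IntS6 (203), IntS10 (130) and defl, which encodes the seventh subunit (121). Of the 11 genes for the Sm and LSm proteins, which form rings around snRNAs, LSm1 (127) and LSm7 (105) were occupied. Of 20 genes listed for proteins of the U1, U2, U4, U5 and U6 snRNPs 4 were occupied. Their signals were 184 at Sf3b6, 168 at snRNP-U1-C, 125.2 at Rnp4F and 98.2 at U4-U6-60K. Of 12 genes for snRNP assembly and transport 1 was occupied, Smn (93.5), which encodes the survival motor neuron protein. Of 5 genes of the 7SK particle and P-TEFb 2 were occupied, bin3 (168), which encodes a methyltransferase that caps 7SK, and Larp7 (97.8), which encodes a protein that binds 7SK. Over the 6 groups the occupied share ran from 8.33% to 40%, on both sides of 15.8%, and the differences were not tested. The summit lay upstream of the gene's nearest own TSS at 15 of the 16 occupied genes. Measured from the gene start, it lay upstream at 1638 of 1947 protein-coding genes in the reproducible set, so nothing is read from the count of 15. At 9 of the 16 the nearest protein-coding TSS was that of another gene, so the site cannot be given to 1 gene alone.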

How the data were processed

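Chromatin of whole embryos was sheared to 200 to 800 bp, per the labels. The dm6 lists were used. Per the text files deposited beside them, candidates were called by the authors per replicate and on the pool, against a control, and the irreproducible discovery rate then gave the reproducible set. Neither the labels nor those files name the aligner or the peak caller. Signal values are a score deposited by the authors, and q values were deposited as −log10. Lists on dm3 were not used, because coordinates were not converted. From these, summits (region start plus summit offset) were compared with gene starts of Ensembl release 115 within 500 bp, on the 6 main arms, with Python 3.11.15, numpy 2.4.6 and pandas 2.3.3. Each of the 32 members has 1 transcript start, equal to its gene start. Ranks are by signal within a list. Where a window held several summits, the strongest was used. The reference sequence is NCBI Release 6. Depth is unknown, because no file holds read counts. The 3 biological replicates form 1 group, so no test between groups was made, and counts are given beside those of all genes. The window search, motif search and word counts were tested on simulated data. The naming rule was that every member is accounted for, members in the reproducible set in full, and, for each protein list, the occupied genes with the highest signals, at most 4. The 32 members follow from the annotated biotype alone, but the choice to describe this class, and the lists and motifs, were made with earlier results of these data known. Of 84 list entries, 4 repeated another, 7 had no match and 1 matched more than 1 gene.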

Additional observations from a re-analysis of the deposited data

How the results depend on the processing

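The number of snRNA genes in the reproducible set was 6. It was 4 within 250 bp, 7 within 1000 bp, 4 with the upper 50% of peaks by signal, 5 with each summit given to its nearest TSS, and 4 with peaks that overlapped top regions of all replicates by at least 1 bp. With an overlap of at least 200 bp it was 2, but the U6 peak is 183 bp wide and could not pass, which by itself removes its pair of genes. Leaving out each replicate in turn, and counting genes in the top regions of both others, gave 4 to 6. The pooled candidate count of 18 was 13 to 21 under the other windows and the upper 50% of candidates, and 12 to 14 when each replicate was left out. The mean share of members with a top region, 17.7%, was 11.5% with 1835 and 29.2% with 7340 regions per replicate, 12.5% within 250 bp, and 17.2% to 18.8% when each replicate was left out. The median distance of the best pooled summit from the gene start, 152.5 bp, was 117 bp within 250 bp, 175 bp within 1000 bp and 124.5 bp in replicate 3. Fewer top regions or a narrower window can only lower the share, more regions can only raise it, and the window bounds the distance. For replicate 3 the cause was not tested. No paired analysis was possible because the samples form 1 group. Unknown depth limits every absence reported, and repeated sequence limits those at members whose surroundings are not unique.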
